A study of Mus musculus with 6 samples.

Results

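Serpins and other protease inhibitors were examined in granulocyte-macrophage progenitors (GMPs), the bone marrow cells that give rise to granulocytes and monocytes. The members were chosen by gene symbol: every gene whose symbol starts with Serpin, with Stfa and a digit or with Timp and a digit, plus Slpi, Tfpi, Cst3, Cst7 and Cstb, with Serpinb1a left out. This gave 80 genes of the 37620 in the deposited table: 67 serpins, 4 stefin A genes, 4 tissue inhibitors of metalloproteinases (TIMPs), 3 other cystatins (Cst3, Cst7, Cstb), and Slpi and Tfpi. RNA had been measured in 6 libraries of sorted GMPs from C57BL/6 mice aged 65 days, given polyI:polyC (pIpC) at 42 days according to the labels, while the design text places the injections earlier in life. The 3 control libraries came from Bap1 f/f mice without Cre. The 3 libraries labelled Bap1 knockout came from littermates of genotype MX1+ Cre Bap1 f/f, in which the pIpC given to both groups switches on Cre through the interferon-responsive Mx1 promoter in all cells that answer interferon. Cre was carried by the knockout-labelled mice and not by the controls, so its own effect cannot be told apart from that of Bap1 loss. Whether the libraries of a group come from different animals is not stated in the labels, so p-values measure the spread between these libraries alone.

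Serpins are folded around an exposed loop that a serine protease cleaves as if it were a substrate, upon which the serpin snaps shut and traps the enzyme. Clade A serpins are mostly secreted, while clade B serpins stay inside the cell and shield it from proteases that leak from granules or lysosomes. Cystatins and stefins block cysteine cathepsins, TIMPs block matrix metalloproteinases, SLPI blocks elastase and cathepsin G, and TFPI blocks the tissue factor pathway of coagulation. GMPs make large amounts of the neutrophil serine proteases, the enzymes that several of these inhibitors act on.

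Values are normalized counts, in which the authors scaled the reads of each library by a single size factor. Between 19.5 and 25.9 M reads per library fell in genes, and 1 read was worth 0.888 to 1.14 normalized counts. A gene with 0 reads is bounded at 3 reads per library, or 2.67 to 3.43 normalized counts, which covers counting error only. The libraries labelled knockout differed more among themselves than the controls did (chi-square per gene of 44.7 to 54.2 for pairs of them, against 13.8 to 19.0). Bap1 itself stood at 1343, 998.5 and 1076 in the control libraries and at 2671, 3309 and 2968 in the libraries labelled knockout. It was thus 2.62-fold higher, not lower, where the label says knockout. Reads over the entire gene cannot test whether part of it was deleted, and directions are therefore given for libraries by their label. All 16 listed GMP markers were tested, with 6 higher and 3 lower (37.5% and 18.8%, against 11.8% and 15% of all tested genes). Their summed level was 903528 to 978434 in control and 1115185 to 1615530 in knockout-labelled libraries, most of it from Mpo and Elane. Among genes that the sort used, Cd34 (11499 ± 297 against 3963 ± 244) and Fcgr3 (13250 ± 728 against 7836 ± 1485) were lower, Kit was higher (1096 ± 86.1 against 1524 ± 152), and Ly6a, which encodes the Sca1 antigen the gate leaves out, did not pass (88.6 ± 42.3 against 59.9 ± 15.7; SD, n = 3 each).

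Of the 80 inhibitor genes, 40 had no read in any library and 18 had reads but a mean below 10 normalized counts, the minimum for a test. The remaining 22 were tested with limma together with all other genes above that minimum (14391 in all), on log2(normalized count + 1), with Benjamini-Hochberg adjusted p-values over all of them and a threshold of 0.05. Of these 22 genes, 7 passed as higher in the libraries labelled knockout and 6 as lower. The same test called 11.8% of all tested genes higher and 15% lower. Expressed as shares, 31.8% of the tested inhibitors were higher and 27.3% lower. The median log2 fold change of the 22 was 0.74 against 0.01 over all tested genes, and the median of its size regardless of sign was 1.23 against 0.38. Over the 17 of them with a mean of at least 50, the median was 0.15. In bulk libraries, fewer cells of a type and less RNA per cell cannot be told apart. Of the 22, 3 (Stfa1, Serpina3i and Serpinb2) passed the minimum through the knockout-labelled libraries, with control means under 10.

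**Figure D1:**
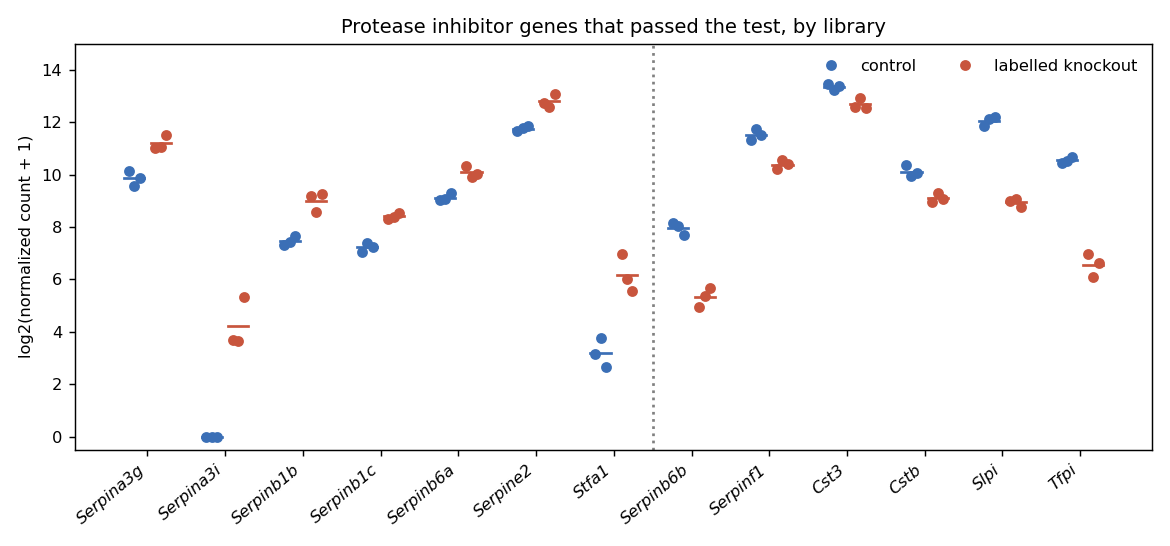
Normalized counts of the 13 inhibitor genes that passed the test, on a log2(normalized count + 1) scale, with 1 point per library (3 control, 3 labelled knockout) and a bar at the group mean. The 7 genes left of the dotted line were higher in the libraries labelled knockout and the 6 to its right lower, and in each of the 13 genes the groups do not overlap.

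In 15 of the 22 tested inhibitors the 3 control values and the 3 knockout-labelled values did not overlap (9 higher, 6 lower in the libraries labelled knockout). The same held for 20.4% of all tested genes in the higher and 22.5% in the lower direction, or 42.9% in either. The 15 comprise the 13 genes that passed the test together with Timp2 and the pseudogene Serpinb1-ps1, which did not pass. edgeR and DESeq2, run on the reads recovered from the normalized counts, each called all 13 in the same direction. Most limma calls were shared in this way: of 3858 over all tested genes, edgeR shared 3679 and DESeq2 3810. These tools called 26.1% and 29.8% of all tested genes in either direction, and limma 26.8%.

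**Figure D2:**
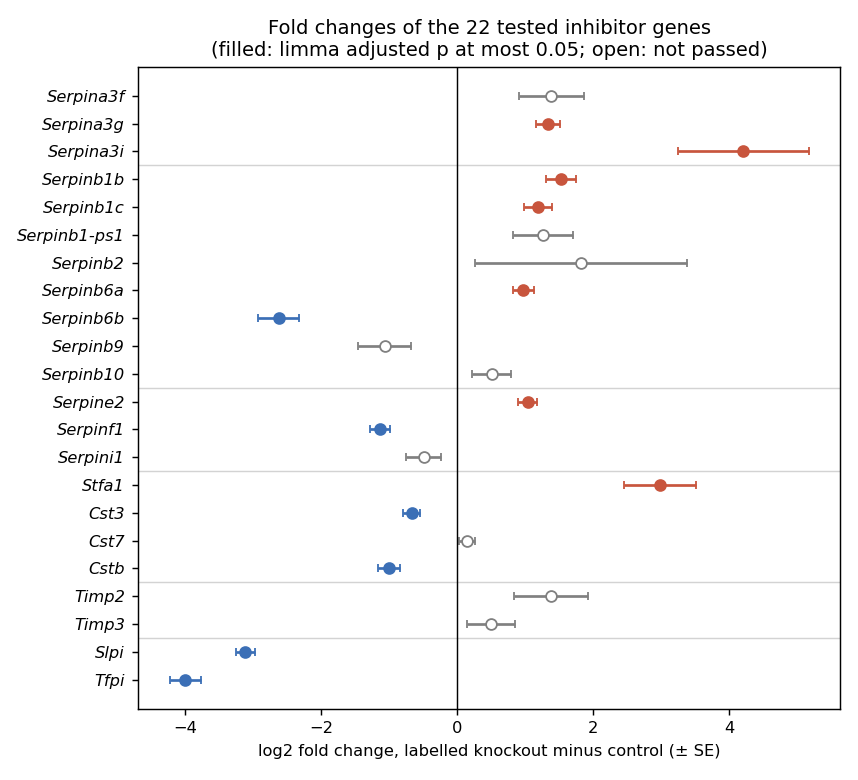
Log2 fold change (labelled knockout minus control, on the log2(normalized count + 1) scale) of the 22 tested inhibitor genes with its standard error, grouped from top to bottom as clade A serpins, clade B serpins, other serpins, stefins and cystatins, TIMPs, and Slpi with Tfpi. Filled points passed the test. Tfpi (-4.00) and Slpi (-3.12) lie farthest to the left, and Serpina3i (4.21) and Stfa1 (2.98) farthest to the right.

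Slpi and Tfpi, inhibitors outside the serpin family, fell furthest among the tested inhibitors. Slpi (ENSMUSG00000017002), the secretory leukocyte protease inhibitor, stood at 3729, 4460 and 4779 normalized counts in control and at 509.9, 537 and 441 in the libraries labelled knockout. Every control library was thus far above every knockout-labelled library. The means were 4323 ± 538 and 496.0 ± 49.7 (SD, n = 3 each), an 8.72-fold fall, and limma gave it an adjusted p of 2.16e-07 (log2 fold change -3.12 ± 0.14 SE). Tfpi (ENSMUSG00000027082), which inhibits factor Xa and the tissue factor complex, was at 1416, 1489 and 1661 in control and at 126, 66.6 and 98.2 in the libraries labelled knockout, again with no overlap. Its mean went from 1522 ± 126 to 96.9 ± 29.6, or 15.7-fold lower (adjusted p = 1.55e-06, log2 fold change -4.00 with an SE of 0.23). Both rested on many reads, with 14227 against 1380 for Slpi and 5015 against 268 for Tfpi, summed over the libraries of each group.

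The cystatins that act on lysosomal cathepsins did not move as a block. Cst3, which encodes the widely expressed secreted inhibitor cystatin C, stood at 11415, 9676 and 10773 in control and at 6209, 7874 and 6011 in the libraries labelled knockout, 1.59-fold lower without overlap (log2 fold change -0.67, SE 0.13, limma adjusted p = 0.00304). Cstb, which encodes stefin B, an inhibitor that stays in the cell, was at 1311, 986 and 1078 against 502, 633 and 540.1. This was a 2.01-fold fall (adjusted p = 0.000959, log2 fold change -1.01 with an SE of 0.16), and the lowest control library stood above all 3 knockout-labelled ones. Cst7, which encodes cystatin F, the cystatin of immune cells that reaches lysosomes, did not pass. It was at 12301, 10840.0 and 12210 in control and at 13954, 13994 and 11300.4 in the libraries labelled knockout, with overlapping groups (adjusted p = 0.406, log2 fold change 0.15 with an SE of 0.12). Cst7 and Cst3 held most reads of the 80 genes, a set that leaves out the more abundant Serpinb1a. In control, 30.3% ± 1.21 of all reads of the 80 genes came from Cst7 and 27.3% ± 1.70 from Cst3, and in the libraries labelled knockout 37.2% ± 3.98 and 19.0% ± 2.57 (SD, n = 3).

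Stefin A genes form a cluster of near copies on chromosome 16 that is known from neutrophils and skin. Stfa1 (ENSMUSG00000071562) stood at 8.0, 12.4 and 5.35 normalized counts in control and at 125, 63.5 and 45.7 in the libraries labelled knockout, so the groups did not overlap. Its mean rose from 8.59 ± 3.57 to 78.0 ± 41.5, or 9.08-fold (log2 fold change 2.98, SE 0.53, limma adjusted p = 0.00199). The rise rested on 28 reads in control and 218 in the libraries labelled knockout. In the GENCODE M21 transcripts, 26.9% of the 50-base stretches of Stfa1 also occur in another gene, and its transcript is 97.1% identical to that of the stefin-like gene BC100530 over 617 aligned bases. Reads that aligned to several places are listed apart from the genes in the authors' table, so genes with such stretches can be undercounted. BC100530 was at 0.637 ± 1.10 in control and 20.6 ± 14.0 in the libraries labelled knockout, from 2 and 57 reads, and reached the minimum for a test through the latter libraries. Of the other stefin A genes, Stfa2 and Stfa2l1 had reads in 1 library each and Stfa3 had none.

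Clade A serpins lie in a row on chromosome 12, apart from 1 of the 29, and 10 of them had a read. Serpina3g (ENSMUSG00000041481), known as Spi2A, an inhibitor of serine proteases and cathepsins expressed in blood progenitors, led the clade. It was at 1118, 759.6 and 947 in control and at 2096, 2143 and 2905 in the libraries labelled knockout, with no overlap. This was a 2.53-fold rise from 941 ± 179 to 2381 ± 454 (SD, n = 3; limma adjusted p = 0.000269, log2 fold change 1.34 with an SE of 0.17). Its neighbour Serpina3f, a close paralog, was at 96.0, 24.8 and 70.4 in control and at 89.6, 177 and 196 in the libraries labelled knockout. The groups overlapped and it did not pass (adjusted p = 0.0516, log2 fold change 1.38 with an SE of 0.48), although 8 of 16 alternatives called it, over which the adjusted p ran from 0.023 to 0.18. Serpina3i had 0 reads in each control library and 11.7, 11.5 and 38.8 normalized counts in the libraries labelled knockout, at least 7.56-fold higher than the mean that 3 reads per control library allow. It passed (limma adjusted p = 0.00771) but rested on 56 reads, and without knockout replicate 3 the call was lost (adjusted p = 0.0538, the highest of its 15 alternatives, of which the lowest was 0.00012). The adjacent pseudogene Serpina3h, under the minimum for a test, was named after its values were seen. It had 0 reads in control and 2.13, 1.04 and 19.4 normalized counts in the libraries labelled knockout, from 20 reads. Of its 50-base stretches, 24.4% occur in other genes, Serpina3i and Serpina3g among them. For Serpina3i this share is 15.4%, with Serpina3h and Serpina3g among those genes. Whether reads of these near copies were counted for each other was not tested. The hepatic Serpina1 genes, which encode alpha-1 antitrypsins in mice, had no read in any library, but they are near copies: 35.6 to 74.2% of the 50-base stretches of Serpina1a to Serpina1e occur in other genes.

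**Figure D3:**
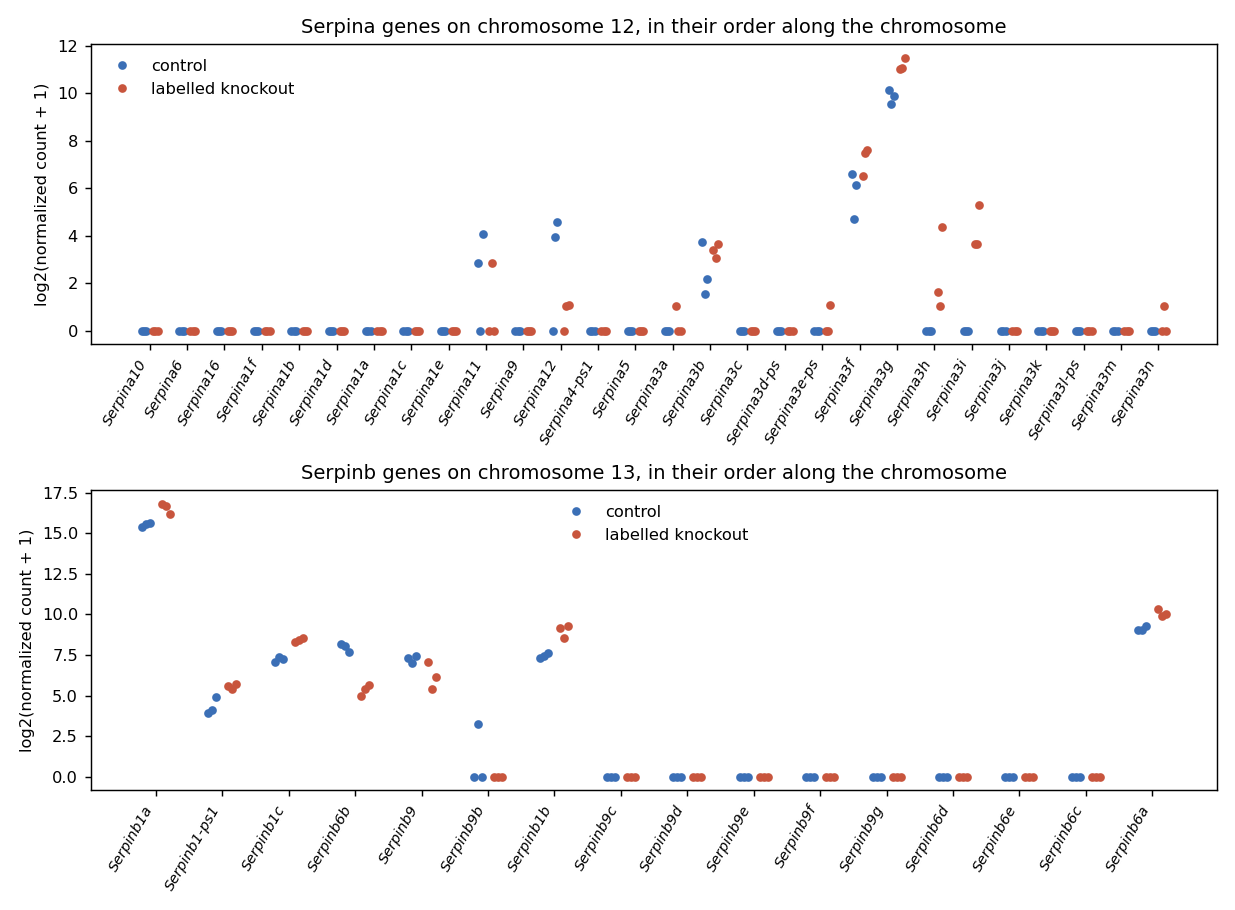
Normalized counts of the Serpina genes of chromosome 12 (top) and the Serpinb genes of chromosome 13 (bottom), on a log2(normalized count + 1) scale, with 1 point per library and genes placed in their order along the chromosome, not by distance. Reads on chromosome 12 centre on Serpina3f to Serpina3i. On chromosome 13 Serpinb6b is lower in the libraries labelled knockout, while its neighbour Serpinb1c and, further along, Serpinb1b are higher. Serpinb9, next to Serpinb6b on the other side, did not pass (log2 fold change -1.07). Serpinb1a, outside the gene set, is plotted for its relation to the near copies.

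The upstream windows of Serpina3f, Serpina3g and Serpina3i are printed because these neighbours are close paralogs that were read in these cells. Each is the 250 bases before the RefSeq start (GRCm38.p6, plus strand), at chr12:104214294-104214543, chr12:104235897-104236146 and chr12:104262872-104263121. For Serpina3f the more upstream of its 2 RefSeq starts was taken. Capitals mark matches to 5 motifs searched on both strands: TTCNNNGAA (the STAT-type GAS element), GAAA and again GAAA with 2 bases of any kind between (IRF-type), GAGGAA (ETS-type), TTGCNNAA (C/EBP-type) and TATAAA.
Serpina3f: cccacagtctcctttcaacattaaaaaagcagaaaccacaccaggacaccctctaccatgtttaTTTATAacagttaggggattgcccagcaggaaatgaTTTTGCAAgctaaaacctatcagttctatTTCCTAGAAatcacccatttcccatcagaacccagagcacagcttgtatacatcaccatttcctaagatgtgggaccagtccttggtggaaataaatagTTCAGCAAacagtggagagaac
Serpina3g: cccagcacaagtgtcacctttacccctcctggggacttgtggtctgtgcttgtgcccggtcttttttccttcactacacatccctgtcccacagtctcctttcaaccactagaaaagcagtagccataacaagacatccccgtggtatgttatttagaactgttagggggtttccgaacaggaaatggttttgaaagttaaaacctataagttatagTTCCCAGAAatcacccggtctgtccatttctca
Serpina3i: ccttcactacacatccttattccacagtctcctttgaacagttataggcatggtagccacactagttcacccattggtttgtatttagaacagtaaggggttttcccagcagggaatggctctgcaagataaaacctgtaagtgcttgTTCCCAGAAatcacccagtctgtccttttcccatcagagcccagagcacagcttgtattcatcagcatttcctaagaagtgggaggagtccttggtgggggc

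All 3 windows hold a GAS match inside a stretch they share. It reads TTCCTAGAA in Serpina3f, where it begins 121 bases before the start, and TTCCCAGAA in Serpina3g and Serpina3i, where it begins 33 and 102 bases before it. Of 32851 RefSeq promoter windows of the same length, 7.02% hold a GAS match. Since the Serpina3g and Serpina3i windows are 80.4% identical over 179 aligned bases, and those of Serpina3f and Serpina3g 82.9% over 152, the 3 matches are copies of 1 stretch and not separate occurrences. Serpina3f also holds 2 C/EBP-type matches, which 9.56% of windows hold at least once, and a TATAAA match on the minus strand (12.4% of windows). A match is a run of letters and says nothing on binding.

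Clade B serpins, which act inside cells, rose in 3 of 8 tested members and fell in 1, where 11.8% of all tested genes were higher and 15% lower. Serpinb6a (ENSMUSG00000060147), an inhibitor of cathepsin G, was at 518, 537 and 625 in control and at 1289.7, 975 and 1053 in the libraries labelled knockout, without overlap. It rose 1.97-fold, from 559.9 ± 57.0 to 1106 ± 164 (log2 fold change 0.97, SE 0.16, limma adjusted p = 0.00102). Serpinb6b (ENSMUSG00000042842), a paralog that is 85.5% identical over 545 aligned transcript bases and is known as an inhibitor of granzyme A, went the other way. It stood at 286, 261 and 206 in control and at 29.9, 40.6 and 50.2 in the libraries labelled knockout, a 6.24-fold fall from 250.9 ± 41.0 to 40.2 ± 10.2 (adjusted p = 0.000105, log2 fold change -2.63 with an SE of 0.30). Within a library, the Serpinb6a value was 1.81 to 3.03 times that of Serpinb6b in control and 21.0 to 43.2 times in the libraries labelled knockout. Exons of Serpinb6a overlap those of Nqo2, Ripk1 and 1110046J04Rik on the opposite strand in GENCODE M21, and the sources used here do not say whether strand was used in counting. Nqo2 was at 1515 ± 141 and 900.4 ± 173 (adjusted p = 0.00478, lower) and Ripk1 at 807 ± 125 and 730.2 ± 55.1 (0.555), while 1110046J04Rik had 2 reads in all. The part of reads from these genes in the Serpinb6a values was not tested.

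The windows before Serpinb6a and Serpinb6b are shown because the paralogs moved in opposite directions. They are the 250 bases at chr13:34002795-34003044 (minus strand, the more upstream of its 2 RefSeq starts) and chr13:32965011-32965260 (plus strand), from RefSeq on GRCm38.p6, with the same 5 motifs in capitals.
Serpinb6a: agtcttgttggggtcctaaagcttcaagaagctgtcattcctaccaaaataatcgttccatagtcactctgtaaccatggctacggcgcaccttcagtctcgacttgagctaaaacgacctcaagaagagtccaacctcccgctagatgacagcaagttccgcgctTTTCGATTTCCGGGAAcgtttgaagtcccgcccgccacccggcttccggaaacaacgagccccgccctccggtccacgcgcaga
Serpinb6b: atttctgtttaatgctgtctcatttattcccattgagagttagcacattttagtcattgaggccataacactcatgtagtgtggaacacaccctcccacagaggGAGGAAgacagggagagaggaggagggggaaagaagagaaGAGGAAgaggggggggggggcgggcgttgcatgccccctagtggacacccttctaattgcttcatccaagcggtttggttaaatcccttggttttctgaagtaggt

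The Serpinb6a window holds 20 CG dinucleotides, and 17.9% of all windows hold at least as many. That of Serpinb6b holds 3, and 71% of all windows hold at least as many. The Serpinb6a window contains an IRF-type match on the minus strand (TTTCGATTTC), which 2.98% of windows have, running into a GAS match (TTCCGGGAA). The Serpinb6b window holds 2 GAGGAA matches, a motif found in 23.3% of windows. The other RefSeq start of Serpinb6a, with 2 CG dinucleotides before it, holds none of the 5 motifs, and the data do not tell which start was used.

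Serpinb1b and Serpinb1c, paralogs of the elastase inhibitor gene Serpinb1a, were higher in the libraries labelled knockout. Serpinb1b (ENSMUSG00000051029) stood at 159.9, 173 and 199.7 in control and at 576, 378 and 618 in the libraries labelled knockout. It rose 2.95-fold, from 178 ± 20.3 to 524 ± 128 (log2 fold change 1.53, SE 0.22, limma adjusted p = 0.000572). Serpinb1c (ENSMUSG00000079049) was at 131, 167 and 149.7 against 314, 337 and 375, and rose 2.29-fold from 149 ± 17.9 to 342 ± 30.7 (adjusted p = 0.00157, log2 fold change 1.19 with an SE of 0.21). Neither gene had overlapping groups. The pseudogene Serpinb1-ps1 was at 14.2, 16.2 and 28.5 against 48.0, 40.6 and 51.4, also without overlap, and did not pass (adjusted p = 0.0557).

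These genes lie in the cluster of Serpinb1a and share sequence with it, and their group means rose with it. Serpinb1a was at 47572 ± 3624 in control and 98845 ± 22083 in the libraries labelled knockout. Among the latter libraries, Serpinb1a was lowest in replicate 3 (73847), where Serpinb1b (618), Serpinb1c (375) and Serpinb1-ps1 (51.4) were highest. The transcripts of Serpinb1b, Serpinb1c and Serpinb1-ps1 are 89.4, 89.3 and 90.2% identical to that of Serpinb1a over 1377, 1387 and 583 aligned bases, and 3.52, 6.63 and 8.57% of their 50-base stretches occur in other genes. Serpinb1c came to 0.314% ± 0.0245 of the Serpinb1a value in control and 0.364% ± 0.126 in the libraries labelled knockout (SD, n = 3), with overlapping groups. For Serpinb1-ps1 these values were 0.0409% ± 0.0137 and 0.0497% ± 0.0173, and for Serpinb1b 0.373% ± 0.0217 and 0.563% ± 0.248, overlapping as well. Whether reads of Serpinb1a were counted for its near copies was not tested. In the Serpina3 row, Serpina3f came to 6.43% ± 2.80 of the Serpina3g value in control and 6.43% ± 2.01 in the libraries labelled knockout, with 10.7% of its 50-base stretches found in other genes. Control libraries held 3115 reads of Serpina3g and 0 of Serpina3i, against 6567 and 56 in the libraries labelled knockout. The Serpina3i transcript is 88.8% identical to that of Serpina3g over 1726 aligned bases, and 15.4% of its 50-base stretches occur in other genes. Whether reads of Serpina3g were counted for Serpina3f or Serpina3i was not tested.

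**Figure D4:**
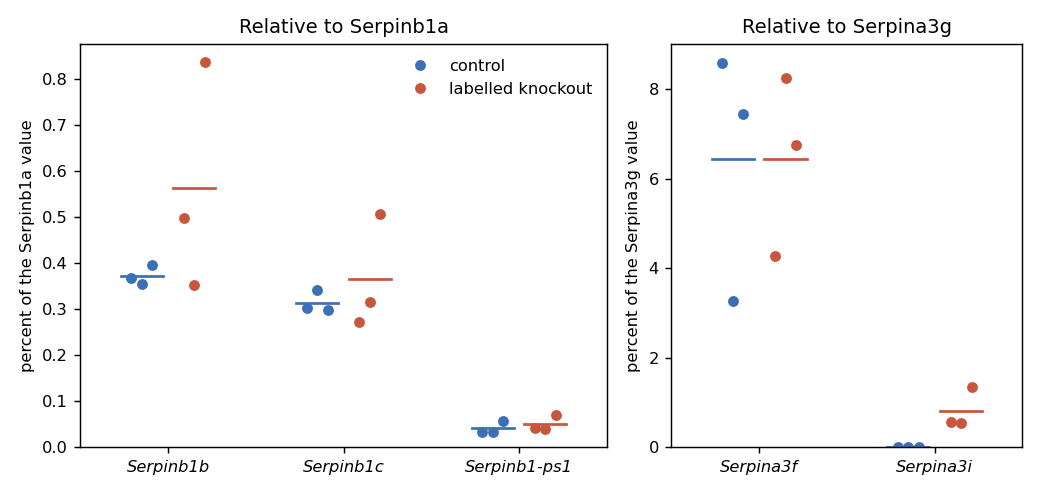
Value of each near copy as a percentage of the value of its more abundant paralog in the same library, for 3 copies of Serpinb1a (left) and 2 of Serpina3g (right), with 1 point per library and a bar at the group mean. Control and knockout-labelled libraries overlap for Serpinb1b, Serpinb1c, Serpinb1-ps1 and Serpina3f, while Serpina3i is at 0 in all control libraries.

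The other tested clade B serpins did not pass. Serpinb9, the granzyme B inhibitor of cytotoxic cells, was at 162, 127 and 171 in control and at 133, 40.6 and 68.5 in the libraries labelled knockout. The groups overlapped through knockout replicate 1 (log2 fold change -1.07, SE 0.39, limma adjusted p = 0.0625). Without that library it was called (adjusted p = 0.00979, the lowest of its 16 alternatives, of which the highest was 0.198). It was also called with the replicate number as a block in limma (adjusted p = 0.0378). Serpinb10, or bomapin, a serpin of myeloid progenitors, was at 227, 426 and 319 against 559, 555 and 285 (adjusted p = 0.225). Without knockout replicate 3 it was called (log2 fold change 0.83, adjusted p = 0.0374, within 0.0374 to 0.566 over its alternatives). Serpinb2, the urokinase inhibitor PAI-2, had reads in 3 of the 6 libraries, at 22.2 in control replicate 1 and 28.1 and 34.3 in knockout replicates 2 and 3 (adjusted p = 0.419), and its exons overlap those of Serpinb10 on the same strand.

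Among serpins of the clades C to I, 1 of the 3 tested genes rose and 1 fell. Over all tested genes 11.8% were higher and 15% lower. Serpine2 (ENSMUSG00000026249), protease nexin 1, an inhibitor of thrombin and urokinase, stood at 3263, 3510.5 and 3697 in control and at 6928, 6092 and 8691 in the libraries labelled knockout. Its mean rose 2.07-fold, from 3490.1 ± 218 to 7237 ± 1327, without overlap (log2 fold change 1.04, SE 0.14, limma adjusted p = 0.00031). Its share of the reads of the 80 genes went with it, from 8.99% ± 0.560 to 20.6% ± 4.10 (SD, n = 3). Serpinf1 (ENSMUSG00000000753), pigment epithelium-derived factor, a secreted serpin that does not inhibit proteases, was at 2554, 3416 and 2908 against 1179.8, 1503 and 1346. This was a 2.20-fold fall from 2959 ± 433 to 1343 ± 162, without overlap (log2 fold change -1.14, SE 0.14, limma adjusted p = 0.000231). Serpini1, neuroserpin, did not pass, at 156, 204 and 188 in control and 158, 96.8 and 139 in the libraries labelled knockout (adjusted p = 0.184).

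TIMPs were low and did not pass. Timp2, which inhibits matrix metalloproteinases and helps activate MMP2, was at 9.77, 48.7 and 31.2 in control and at 52.3, 61.4 and 90.2 in the libraries labelled knockout (log2 fold change 1.38, SE 0.55, limma adjusted p = 0.0826). The groups did not overlap, but the lowest knockout-labelled value lay just above the highest control value. Timp3, a TIMP that binds to the matrix and whose exons overlap those of Syn3 on the opposite strand, was at 80.9, 62.1 and 81.1 against 74.7, 87.5 and 177 (adjusted p = 0.333). Its highest value was that of knockout replicate 3, and the groups overlapped. Timp1 had 4.57 normalized counts in knockout replicate 3 and 0 reads elsewhere, and Timp4 had none.

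Of the 18 inhibitors with reads but no test, the means over all libraries ran from 0.173 to 7.79. The highest were Serpinc1 (antithrombin, 11.6 ± 9.89 in control and 3.99 ± 3.46 in the libraries labelled knockout), Serpina3b (5.97 ± 5.66 and 9.44 ± 2.07), Serpina12 (vaspin, 12.5 ± 11.7 and 0.728 ± 0.632), Serpinh1 (the collagen chaperone HSP47, 4.37 ± 4.83 and 6.71 ± 6.84) and Serpinb8 (7.78 ± 8.14 and 2.08 ± 3.61). In each of these 5 genes the groups overlapped.

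**Figure D5:**
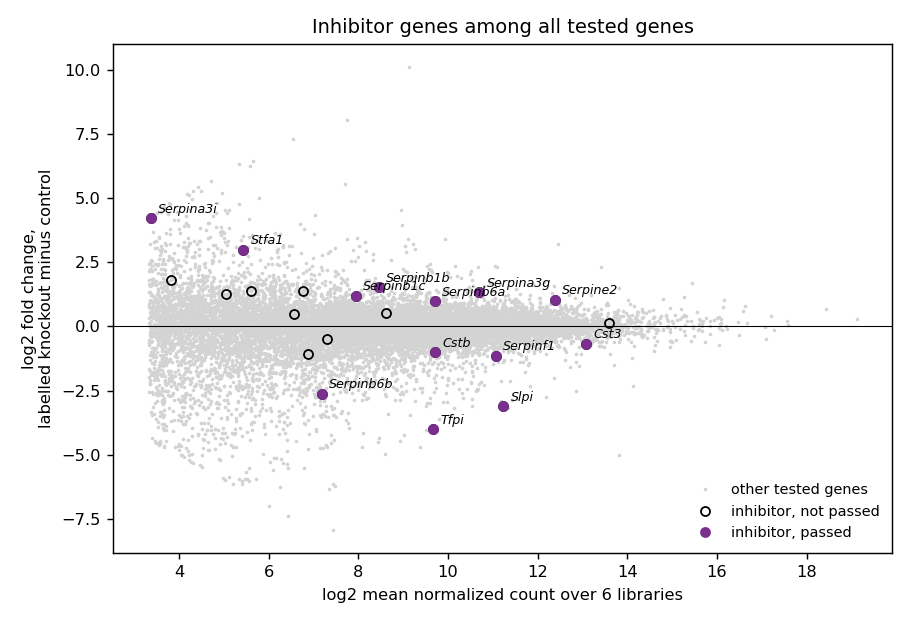
Log2 fold change (labelled knockout minus control) against the log2 mean normalized count over the 6 libraries, for all 14391 tested genes (grey) and the 22 tested inhibitors (filled and named where they passed the test, open where not). Slpi and Tfpi lie lowest among the inhibitors, and Serpina3i lies next to the minimum of 10 normalized counts.

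The order by level of the inhibitors in the set, which leaves out Serpinb1a, changed between the groups. Levels were compared per kilobase of the longest GENCODE M21 transcript, in normalized counts per kilobase (SD, n = 3). In control, Cst3 (12351 ± 1023) and Cst7 (11951 ± 830.1) led and lay within 1 SD of each other. Slpi followed at 4935 ± 615, then Cstb (1866 ± 278) and Serpinf1 (1615 ± 237), which did not differ beyond their spread, Serpine2 (1029 ± 64.3), Serpina3g (522 ± 99.3) and Tfpi (384 ± 31.6). In the libraries labelled knockout Cst7 (13269 ± 1566) stood above Cst3 (7789 ± 1190), and Serpine2 (2133 ± 391) and Serpina3g (1321 ± 252) came next. Below them were Cstb (926 ± 111), Serpinf1 (733 ± 88.3), Slpi (566 ± 56.7) and Serpinb6a (505 ± 74.9), and Tfpi had dropped to 24.4 ± 7.47. Serpinb1a, outside the set, stood above all of them, at 24803 ± 1889 in control and 51535 ± 11513 in the libraries labelled knockout. The total over the 80 genes, without Serpinb1a, was 1616 to 1747 reads per M gene reads in control and 1427 to 1558 in the libraries labelled knockout.

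The proteases that these inhibitors act on, from a list chosen with earlier results of these data known, included genes that rose and genes that fell. Of 52 listed genes 36 were tested, of which 7 were higher (19.4%, against 11.8% of all tested genes) and 10 lower (27.8%, against 15%). The median log2 fold change was 0.08. Of the 10, Gzma had a mean under 10 in the libraries labelled knockout and passed the minimum through the controls. The 6 called genes with the highest mean were granule or lysosomal enzymes. Elane (neutrophil elastase), a target of SLPI and SERPINB1, was at 268365 ± 12107 in control and 444320 ± 134556 in the libraries labelled knockout (limma adjusted p = 0.0263). Ctsg (cathepsin G), a target of SERPINB6A, rose 1.62-fold (adjusted p = 0.00153), Prss57 1.88-fold (0.00132) and the basophil protease gene Mcpt8 1.55-fold (0.0168). Prss34, another basophil protease gene, was 31.3-fold lower (adjusted p = 1.46e-07). Ctsc (cathepsin C), which activates the granule serine proteases and is a target of cystatin F, was 2.70-fold lower (3.63e-05).

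Inhibitors outside the set, also listed with earlier results known, rose where they passed. Of 42 listed genes 13 were tested, of which 8 were higher and 0 lower, with a median log2 fold change of 1.31. Over all tested genes 11.8% were higher and 15% lower, and 1 of the 8, BC100530, passed the minimum for a test through the libraries labelled knockout. Spint2, which encodes the Kunitz inhibitor HAI-2 of membrane serine proteases, stood at 2597, 2841 and 2418 in control and at 7334, 9018 and 7393 in the libraries labelled knockout, 3.02-fold higher (limma adjusted p = 9.00e-06). Unlike Slpi, the WAP-domain gene Wfdc21 rose 2.53-fold (adjusted p = 0.00377). Cast, the calpain inhibitor calpastatin, rose 1.48-fold (0.0129), Reck, a membrane inhibitor of metalloproteinases, 2.66-fold (0.0065), Ecm1 8.01-fold (0.000518) and Pi16 2.77-fold (0.0281).

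Markers of other cell types differed between the same groups, and their part in the results above was not tested. Counts are over the tested markers, and 11.8% of all tested genes were higher and 15% lower. Of 13 monocyte and macrophage markers 9 were lower and 1 higher, with a summed level of 111317 to 129880 in control and 57942 to 118214 in the libraries labelled knockout. Of 11 dendritic cell markers 9 were lower (9312 to 25450 against 2167 to 5418, with Irf4 at 0 reads in the libraries labelled knockout). Of 11 basophil and mast cell markers 5 were lower and 1 higher (52732 to 62556 against 22317 to 32580, with Tpsb2 at 0), and of 13 megakaryocyte markers 6 were lower and 2 higher (2758 to 4436 against 1716 to 3880, with Gp6 at 0). All 10 B lymphoid markers were lower (2562 to 3254 against 1128 to 1483, with Vpreb3, Pax5 and Rag1 at 0), 6 of them with a mean under 10 in the libraries labelled knockout, and of 7 T and NK markers 5 were lower and 2 higher (28494 to 30563 against 36950 to 56378, with Cd4 at 0). Neutrophil maturation markers were higher in 3 of 14 (156919 to 216878 against 148565 to 398066) and erythroid markers in 7 of 14, with 1 lower (16014 to 23721 against 11348 to 25169). Of 6 stromal and endothelial markers 1 was higher and 3 lower (5007 to 5405 against 16438 to 21209, most of it Vcam1), and Cdh5, Col3a1 and Bglap, not tested, were at 0 reads in all libraries. Summed levels are over each whole list. Beyond the B lymphoid markers, further lower calls had means under 10 in the libraries labelled knockout and passed the minimum through the controls. They were 3 T and NK markers (Ncr1, Gzma and Il2rb), 2 stromal and endothelial markers (Cxcl12 and Emcn) and 1 megakaryocyte marker (Clec1b). Hba-a2, 1 of the erythroid markers called higher, had a control mean under 10. Hepatocyte markers, from the tissue where most clade A serpins are made, were at or near 0: 5 of 8, Alb among them, had no read, and none was tested.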

How the data were processed

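Gene expression was measured by RNA-seq in 6 libraries of sorted GMPs. SMARTer amplification of the RNA was followed by Ion Torrent whole-transcriptome library preparation, per the labels' protocols. Reads are PCR products without molecular identifiers. The deposited values are a signal per gene, made by the authors from reads scaled by a size factor for each library (100% of values above 0 are whole multiples of 1 step per library, within 0.01 of a read). Per the submitters' processing notes, the builds were mm9 and NCBIM37 and the tools HTSeq, DESeq2, STAR, Picard and BWA 0.7.5a, with no role given. Whole reads were recovered by dividing by the step. Rows that name no gene (5) were left out: reads aligned to several places made up 26.8 to 28.8% of reads listed, and reads outside genes 38.4 to 40.9%.

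Gene IDs were named from GENCODE M21 (32897 of 37620 matched), on another build (GRCm38), which was used for names, lengths and sequence and gives no coordinate of the authors' data. Promoters are from RefSeq (GRCm38.p6), and starts are counted back from the RefSeq start. Genes with a mean of at least 10 were tested on log2(value + 1) with limma 3.58.1 in R 4.3.3, 2-sided, with group as the sole term and a trended prior variance. Fold changes given as ratios are ratios of group means, while log2 fold changes come from the fit on log2(value + 1). In low genes the fitted value can lie below or above the log2 of the ratio. edgeR 4.0.16 and DESeq2 1.42.0 ran on recovered reads. Simulated counts with known changes were used to test the limma steps. Chi-square values per gene between replicates were 13.8 to 54.2, well above counting noise. Each library was treated as 1 unit, but these values cannot show whether the libraries come from different animals. The genes named are all tested members, the 5 highest others, and up to 6 called genes per related list. Members and lists were chosen with earlier results of these data known. No explanation is weighed.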

Additional observations from a re-analysis of the deposited data

How the results depend on the processing

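Every one of the 22 tested inhibitors kept its direction in all of its alternatives, with 16 alternatives run and 347 values in all. Of the 206 values of the 13 called genes, 205 stayed past the threshold, the exception being Serpina3i without knockout replicate 3. In the other direction, 15 values of 5 genes that had not passed came to pass (Serpina3f in 8, Serpinb1-ps1, Serpinb10 and Serpinb9 in 2 each, Timp2 in 1). The called inhibitors ran from 6 to 9 higher and from 6 to 7 lower over the alternatives. The median log2 fold change of the tested inhibitors was 0.15 at a mean value of at least 50 (17 genes) and 0.37 with no filter beyond 1 read (40 genes). Leaving out 1 library gave 1032 to 1791 genes higher and 1372 to 2324 lower over all tested genes. The lowest counts came without control replicate 2 (1032 and 1417) and without control replicate 3 (1053 and 1372), and the cause was not tested. The replicate numbers of the labels did not pair the libraries: deviations from the group means correlated at -0.10, 0.04 and -0.06 between same-numbered libraries, and not every library correlated best with its own number. With the replicate number as a block, 8 inhibitors were higher and 7 lower, and 1550 and 2014 of all genes. Depth limits the genes of few reads: Serpina3i (56 reads), Serpinb2 (82) and Stfa1 (246).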
